A study of Mus musculus with 15 samples.

Results

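The genes described here bear symbols of proteins of both ribosomes of a mouse cell, the cytosolic and the mitochondrial ribosome. They were measured by RNA-seq in B cells before and after activation. Members were chosen by gene symbol. Symbols beginning with Rpl or Rps followed by a number, with the stalk proteins Rplp0, Rplp1 and Rplp2, made the cytosolic set, and symbols beginning with Mrpl or Mrps followed by a number made the mitochondrial set, where a gene had reads in at least 3 of the 15 columns. This gave 158 of the 21669 genes with a symbol, of which 82 were cytosolic (32 of the small and 50 of the large subunit) and 76 were mitochondrial (29 of the small and 47 of the large subunit). Subunits were read from the letter s or l of the symbol alone, which need not match the place of every protein in the ribosome. Nor does a symbol alone show that a protein is part of a ribosome. Rpl10l, with reads in 2 columns, was left out, and Rpl3l, a member, was too low to be tested, so that 81 cytosolic and all 76 mitochondrial members entered the tests.

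The study asked how inhibition of EZH2, the enzyme that places the repressive histone mark H3K27me3, alters B cells on their way to plasmablasts. All libraries came from female C57BL/6J mice. Splenic B cells depleted of CD43+ cells were either taken directly as naive B cells (nB) or cultured for 3 days with LPS, IL2 and IL5 plus DMSO, the solvent, or 2 µM GSK343, an EZH2 inhibitor. Sorting both cultures for B220+GL7+CD138- cells gave activated B cells (actB), and for CD138+ cells plasmablasts (Pb), which made the groups nB, actB DMSO, actB GSK343, Pb DMSO and Pb GSK343 with 3 libraries each. For Pb GSK343 alone the labels name Il6 in place of Il5, whereas the study's methods and the labels of actB GSK343, sorted from the same kind of culture, give IL5. Whether that label is an error was not tested.

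A ribosome joins amino acids in the order an mRNA gives. The cytosolic ribosome has a small 40S subunit, which reads the mRNA, and a large 60S subunit, which forms the peptide bond, and its proteins are among the most abundant transcripts of any cell because each ribosome needs a copy of nearly every one. The mitochondrial ribosome is built in the organelle from proteins encoded in the nucleus and imported, and it translates the few mRNAs of the mitochondrial genome, all for subunits of the respiratory chain and ATP synthase. B cells enlarge and divide after LPS, and plasmablasts devote much of their translation to secreted antibody, so that ribosome supply is a long-standing theme of this differentiation.

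Sequencing depth was 19421830 to 26307413 reads counted in genes per library. The columns of nB replicates 1 and 2 differed by less than sampling noise (chi-square per degree of freedom 0.00947, against at least 3.57 in the other 14 pairs within groups) and were counted as 1 library, so that nB has n = 2 and 14 libraries were analysed. Prdm1 and Xbp1, regulators that define plasmablasts, averaged 1.2 and 50.7 RPKM in nB and 121 and 955 RPKM in Pb DMSO. Markers of other cells were mainly in nB, where the summed level of 7 T and NK cell genes was 61.8 to 67.0 RPM, of 9 myeloid genes 301 to 406 RPM and of 5 erythroid genes 120 to 423 RPM. In the cultured groups these sums were at most 1.24, 87.0 and 15 RPM, no marker of the 3 lists was at 0 in every library, and the part of these cells in the comparison with nB was not tested. Values are relative to each library's own reads, and in such bulk samples fewer cells of a type and less RNA per cell cannot be told apart.

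Short stretches around the start of transcription are shown because the mRNAs of cytosolic ribosomal proteins are known to begin with a C followed by a run of pyrimidines (C or T), the 5′ TOP element through which mTORC1 signalling sets their translation. Each line holds the 15 bases before and the 15 bases from the RefSeq start on (GRCm38.p6), on the sense strand, so that the start is base 16, and the capitals mark the longest run of C and T. The genes are some of those whose values the results turn on, as pairs of variant and partner protein, Rps6, and mitochondrial members that move in different directions. Rpl10, Rplp0 and Rpl7l1, not shown, had longest runs of 3, 5 and 2 bases in such windows.
Rps27 (chr3:90213634-90213663, minus strand): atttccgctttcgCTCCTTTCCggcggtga
Rps27l (chr9:66946071-66946100, plus strand): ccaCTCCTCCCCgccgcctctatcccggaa
Rpl22 (chr4:152325711-152325740, plus strand): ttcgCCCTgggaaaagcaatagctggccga
Rpl22l1 (chr3:28805493-28805522, plus strand): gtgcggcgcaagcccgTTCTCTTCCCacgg
Rps6 (chr4:86857353-86857382, minus strand): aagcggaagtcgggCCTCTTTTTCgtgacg
Mrpl45 (chr11:97315701-97315730, plus strand): gtgcccgcgcgCCCCTCCCCTggagagcgt
Mrps7 (chr11:115604125-115604154, plus strand): tgtgggcagCCCTCCgaggtcctgacagcg
Mrpl57 (chr14:57826224-57826253, plus strand): catcagggCCCCagagagaccggaagcagc
Mrpl37 (chr4:107066852-107066881, minus strand): gcgctccgCCCCTTTggctcccagcagtcc
In Rps6 the run spans the start itself, whereas in Rps27l it lies wholly before it. For Rps27l and Rpl22, with 2 promoters listed each, the first listed is shown.

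RefSeq gave promoters for 61 cytosolic and 67 mitochondrial members, 73 promoters for each set. A run of at least 8 pyrimidines on the sense strand within 20 bases of the start was present in 31 of the 73 cytosolic promoters (42.5%) and 12 of the 73 mitochondrial promoters (16.4%), against 15.9% of the 11337 promoters of genes tested and 16% of all 32851 promoters of 300 bases. On the other strand the shares were 6.85% and 11%, against 15.8% and 17.7%. CTTTCC on the sense strand in the same window, which can lie inside such a run, was in 15.1% of cytosolic and 1.37% of mitochondrial promoters (1.99% of genes tested and 1.95% of all promoters). On the other strand it was in 0% of cytosolic and 1.37% of mitochondrial promoters, against 1.47% of genes tested and 1.74% of all. Both matches were thus more frequent in cytosolic promoters, on the sense strand.

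Over the whole 300 bases and both strands, CCGGAAG, the core bound by ETS factors, was in 35.6% of cytosolic and 32.9% of mitochondrial promoters, against 18.8% of the genes tested and 8.86% of all. AAGATGGC, bound by YY1, was in 11% and 16.4%, against 4.72% and 2.75%. The E-box CACGTG, bound by MYC among others, was in 11% and 9.59% (10.2% of genes tested, 7.15% of all), the NRF1 motif in 2.74% and 4.11% (2.2% and 0.971%), and TATAAA in 9.59% and 6.85% (7.23% and 13.6%). These are matches of letters, with no binding measured.

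Cytosolic members were expressed more than an order of magnitude above mitochondrial members in every group. On the RPKM scale, which divides by gene length, the median cytosolic level was 529 in nB and 582 to 605 in the cultured groups. As a mean over all libraries, 76 of 82 members lay above 100 RPKM. Rpl12, Rpl10 and Rpl28, all of the 60S subunit, had the highest mean levels (1309, 1286 and 1255 RPKM). The median mitochondrial level was 18.4 RPKM in nB, 28.9 in actB DMSO, 29.5 in actB GSK343, 25.6 in Pb DMSO and 25.5 in Pb GSK343. Averaged over all libraries, 75 of the 76 members were below 100 RPKM, although single libraries could lie above it. Mrps21, Mrpl18 and Mrpl20 led that set at 118.8, 94.56 and 77.94 RPKM, and Mrps25, Mrpl17 and Mrps22 were lowest. The lowest single value of the mitochondrial set was 2.56 RPKM, for Mrps25 in an nB library.

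The share of all reads that fell in cytosolic members was 4.33% and 4.39% in the nB libraries. It was 4.8%, 4.88% and 4.72% in actB DMSO libraries 1 to 3, 4.62%, 4.84% and 4.69% in actB GSK343, 4.86%, 4.76% and 4.99% in Pb DMSO, and 4.59%, 4.89% and 4.73% in Pb GSK343. Every cultured library lay above both nB libraries, and the cultured groups overlapped one another. For mitochondrial members the share was 0.204% and 0.206% in nB, 0.370%, 0.304% and 0.352% in actB DMSO, 0.357%, 0.310% and 0.338% in actB GSK343, 0.309%, 0.285% and 0.323% in Pb DMSO, and 0.319%, 0.295% and 0.310% in Pb GSK343. Again every cultured library lay above nB, by a wider margin, and actB and Pb overlapped. Cytosolic reads thus outnumbered mitochondrial reads 21.3-fold in nB (SD 0.074, n = 2), 14.1-fold in actB DMSO (SD 1.7, n = 3) and 15.9-fold in Pb DMSO (SD 0.65, n = 3). In all 4 cultured groups the library numbered 2 had the lowest mitochondrial share, and the same held for a list of 44 ribosome biogenesis genes, and the main counts of both sets are also given without these libraries.

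**Figure D1:**
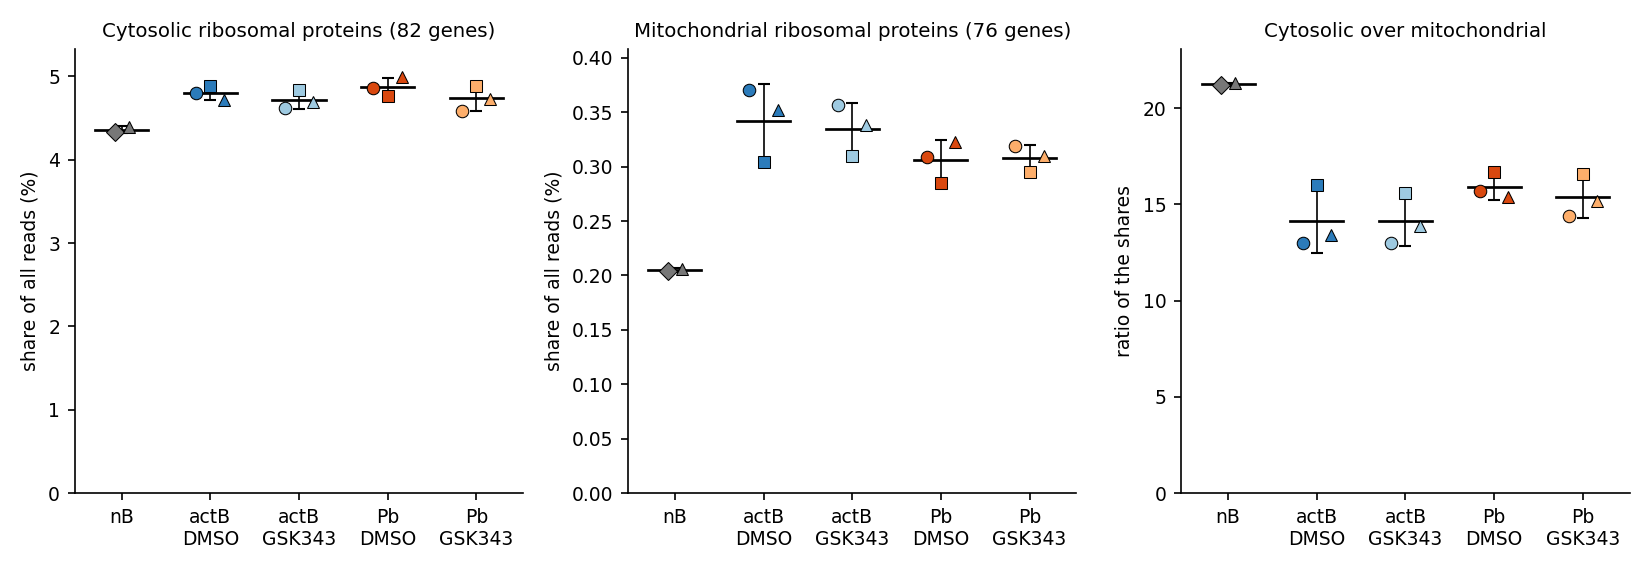
Share of all reads (%) in the 82 cytosolic and the 76 mitochondrial members and the ratio of both shares, by group. Each point is a library (circle, square and triangle for replicates 1, 2 and 3, diamond for the merged nB library), the line is the group mean and the bar its SD. The mitochondrial share is 0.204 to 0.206% in nB and 0.285 to 0.370% in the cultured groups, with replicate 2 lowest in each of them.

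The mitochondrial set was higher in activated than in naive B cells nearly as a whole. Unlike nB, the actB cells were cultured and sorted, which cannot be told apart from activation here. Changes said to occur on activation are changes in this comparison. Between nB and actB DMSO, 72 of the 76 mitochondrial members rose and 1 fell, while of all 11299 genes tested 40.9% rose and 36.3% fell. The median log2 fold change was 0.71 (1.64-fold), against 0.053 over all genes tested. Both subunits, as assigned by symbol, took part, with 28 of 29 small-subunit members higher (median 0.69) and 44 of 47 large-subunit members higher (median 0.71). So did proteins inherited from the bacterial ancestor and those that arose later in mitochondria: 43 of 45 members listed with a bacterial counterpart rose (median 0.71), and 23 of 25 listed without one (median 0.65). The lists did not cover all 76 members, as Mrpl57, Mrps18a, Mrps18b, Mrps28, Mrps30 and Mrps36 were on neither. In 71 members every activated library lay above both nB libraries and in 1 below both, where 44.2% and 39.2% of all genes tested did so. Without the libraries numbered 2 the count was 73 higher and 1 lower.

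Mrpl45, a large-subunit protein that helps hold the mitochondrial ribosome at the inner membrane, rose most. It measured 14.2 and 13.5 RPKM in nB and 45.5, 48.0 and 46.1 RPKM in actB DMSO, and the groups stood far apart (log2 fold change 1.73 ± 0.081 SE, adjusted p = 9.14e-10). Mrps7, at the mRNA exit side of the small subunit, went from 32.4 and 32.2 to 91.8, 84.5 and 96.3 RPKM (1.48 ± 0.091, adjusted p = 1.29e-08), again without overlap. Mrpl18, a large-subunit protein, went from 34.2 and 35.7 to 111, 83.6 and 105 RPKM (1.5 ± 0.12, adjusted p = 1.73e-07). Mrps22, a small-subunit protein without a bacterial counterpart, rose from 2.93 and 3.04 to 9.16, 6.54 and 8.62 RPKM (1.36 ± 0.16, adjusted p = 4.54e-06). In Mrpl18 and Mrps22 replicate 2 was the lowest of the activated libraries, but it still lay well above nB.

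Few mitochondrial members did not follow. Mrpl24 was the only member called lower, at 43.3 and 44.0 RPKM in nB and 39.1, 35.0 and 36.7 RPKM in actB DMSO, without overlap and with a change (-0.24 ± 0.063, adjusted p = 0.004) smaller than most rises. Mrpl43, Mrpl52 and Mrps16 did not pass the test. Mrpl30 and Mrps35 rose only slightly (0.20 ± 0.047 and 0.25 ± 0.071). The call of Mrps35 was lost without nB replicate 3 (adjusted p = 0.0601) and that of Mrpl30 under quantile normalization (adjusted p = 0.264). Mrpl18, Mrpl24 and Mrps7 share exon bases with a gene on the opposite strand (Tcp1, Rrnad1, and Gga3 with Mif4gd), as do 36 of the 158 members, and no source used here says whether reads were counted by strand.

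**Figure D2:**
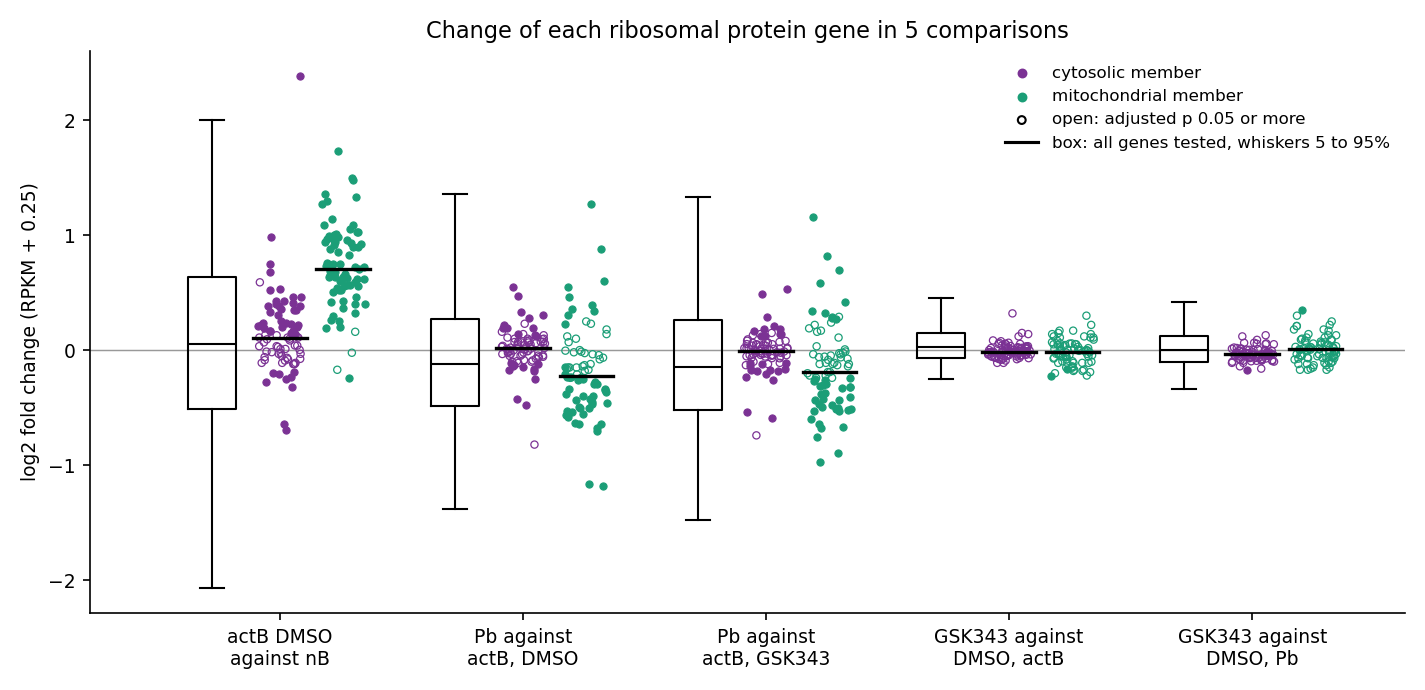
log2 fold change (on RPKM + 0.25) of each tested member in 5 comparisons, cytosolic in purple and mitochondrial in green, filled where the adjusted p is under 0.05, with the set median as a bar and all 11299 genes tested as a box (quartiles, whiskers from 5 to 95%). Mitochondrial members lie around 0.71 in actB against nB and around -0.22 and -0.19 in Pb against actB, while the inhibitor columns stay near 0.

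The cytosolic set was more mixed at the same step. Of 81 tested members 35 rose and 9 fell, and 37 did not pass the test, against the same 40.9% and 36.3% of all genes. The median log2 fold change was 0.11, close to the 0.053 of all genes, and 7 members changed by more than 1.5-fold (2 of 76 without the variant proteins described further on), against 52 of the 76 mitochondrial members and 49.6% of all genes. Without the libraries numbered 2, cytosolic calls were 36 higher and 14 lower. Rises were seen mostly in the 60S subunit, with 25 higher and 3 lower of 49 (median 0.15), and in the 40S subunit 10 were higher and 6 lower of 32 (median 0.012). The difference between the subunits was not tested. Under median scaling the split was 28 higher and 20 lower, under quantile normalization 29 and 21, and with edgeR on the recovered reads 33 and 18, so that the lean towards rises in this set depends on the scaling, whereas the mitochondrial split stayed at 69 to 70 higher and 1 to 2 lower under all of them.

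Among cytosolic members other than the variant proteins, Rps2, at the mRNA entry of the 40S subunit, rose most. It measured 509 and 490 RPKM in nB and 799, 860 and 858 RPKM in actB DMSO (log2 fold change 0.75 ± 0.071, adjusted p = 7.57e-07). Of the stalk, which recruits elongation factors to the 60S subunit, Rplp0, the base, went from 804 and 812 to 1130, 1200 and 1160 RPKM (0.53 ± 0.063, adjusted p = 6.88e-06). Rplp1 rose less (0.23 ± 0.059, adjusted p = 0.0036), and Rplp2, its partner, did not pass the test (-0.060 ± 0.056, adjusted p = 0.343). Rps6, the target of S6 kinase, went from 762 and 730 to 883, 874 and 853 RPKM (0.22 ± 0.054, adjusted p = 0.00246). The stalk proteins thus did not move by equal steps at the mRNA level.

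The falls were led by Rps27, with Rpl37a and Rps15 among them. Rpl37a, of the 60S subunit, went from 603 and 614 to 499, 490 and 479 RPKM (-0.32 ± 0.046, adjusted p = 4.28e-05). Rps15, of the 40S subunit, went from 1230 and 1190 to 1030, 998 and 960 RPKM (-0.28 ± 0.053, adjusted p = 3.56e-04). In both genes every activated library lay below both nB libraries. Both also stayed called in the same direction under all 17 settings tried.

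Variant proteins are paralogues that can take the place of a standard ribosomal protein, and several of them parted from their partners. Rps27l, known as a p53 target, lies at chr9 in mm9 from 66793893 on the plus strand. It measured 40.7 and 50.9 RPKM in nB, 256, 207 and 252 in actB DMSO, 271, 237 and 276 in actB GSK343, 340, 324 and 381 in Pb DMSO, and 392, 370 and 371 in Pb GSK343. The 3 cell states did not overlap, with nB lowest and Pb highest. The rise from nB to actB was 2.38 ± 0.11 on the log2 scale (5.19-fold, adjusted p = 1.24e-09), the largest of the cytosolic set, and from actB to Pb it was 0.55 ± 0.10 with DMSO (adjusted p = 3.85e-04) and 0.53 ± 0.10 with GSK343 (adjusted p = 4.81e-04).

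Rps27 itself went the other way on activation. Its level was 673 and 727 RPKM in nB, 447, 436 and 415 in actB DMSO, and 467, 480 and 456 in Pb DMSO, so that both nB libraries exceeded every cultured library. The fall from nB to actB was -0.69 ± 0.063 (adjusted p = 5.45e-07), the largest among cytosolic members. The step to Pb was 0.11 ± 0.057 with DMSO and did not pass the test (adjusted p = 0.0929), although it did with median scaling, edgeR and the replicate block. Put as a percentage of the partner's level, Rps27l stood at 6.52% of Rps27 in nB (SD 0.68, n = 2), 55.2% in actB DMSO (SD 6.8, n = 3) and 74.7% in Pb DMSO (SD 8.2, n = 3). As the sequences above show, the starts shown for both genes have a pyrimidine run of 9 bases, in Rps27 across the start and in Rps27l ahead of it. For Rps27l this holds for the first of 2 listed promoters.

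Rpl22l1, the paralogue of Rpl22 in the 60S subunit, peaked in activated cells. It measured 111 and 154 RPKM in nB, 252, 276 and 251 in actB DMSO, 242, 286 and 262 in actB GSK343, 198, 167 and 219 in Pb DMSO, and 187, 177 and 179 in Pb GSK343. All activated libraries exceeded all nB and Pb libraries. The rise was 0.98 ± 0.13 (adjusted p = 1.73e-05), and the fall to Pb was -0.42 ± 0.12 with DMSO (adjusted p = 0.00633) and -0.54 ± 0.12 with GSK343 (adjusted p = 0.00122). With DMSO the fall missed the threshold once the libraries numbered 2 were left out (adjusted p = 0.0754).

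Rpl22, whose loss is known to arrest early lymphocyte development, moved far less, from 149 and 152 RPKM in nB to 172, 170 and 166 in actB DMSO and 147, 147 and 155 in Pb DMSO. Its rise (0.17 ± 0.049, adjusted p = 0.0074) was lost under median scaling and quantile normalization, and its fall to Pb (-0.18 ± 0.044, adjusted p = 0.00295) under median scaling. Rpl7l1, a protein of 60S assembly, had the pattern of Rpl22l1, with 29.0 and 29.8 RPKM in nB, 47.9, 46.6 and 47.3 in actB DMSO and 34.9, 32.6 and 34.3 in Pb DMSO. It rose by 0.68 ± 0.047 (adjusted p = 3.75e-08) and then changed by -0.48 ± 0.042 with DMSO (adjusted p = 5.46e-07) and -0.59 ± 0.042 with GSK343 (adjusted p = 7.16e-08). Rpl7, which shares its ancestry, stayed between 917 and 1050 RPKM in all 14 libraries. Its small rise on activation (0.14 ± 0.050, adjusted p = 0.0222) was lost without either nB library (adjusted p = 0.10 and 0.0702) or actB DMSO replicate 2 (adjusted p = 0.0607), and under quantile normalization (0.71), median scaling (0.273) and edgeR (0.0942).

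The remaining variants were scarce. Rps4l measured 5.07 and 5.71 RPKM in nB and 4.26, 3.04 and 2.93 in actB DMSO against 1070 to 1220 RPKM for Rps4x in the nB and cultured libraries. Its fall (-0.64 ± 0.25, adjusted p = 0.0325) was lost when any of nB 1-2, nB 3, actB DMSO 2 or actB DMSO 3 was left out (adjusted p = 0.0757 to 0.157). Rpl39l lay between 0.179 and 1.41 RPKM, and its change on activation (0.59 ± 0.52, adjusted p = 0.313) did not pass the test. Within the replicate block, where only nB replicate 3 shares a number with activated libraries, it was -0.85 (adjusted p = 0.00155), and without nB replicate 3 it was 1.41 (adjusted p = 0.0462), so no direction can be given for it. Its changes to Pb were -0.82 ± 0.47 with DMSO and -0.74 ± 0.47 with GSK343 (adjusted p = 0.136 and 0.171), with overlapping libraries, and passed the test with the replicate block (adjusted p = 1.42e-04 and 2.58e-04). Rpl3l, a muscle protein, did not exceed 0.219 RPKM in any library.

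**Figure D3:**
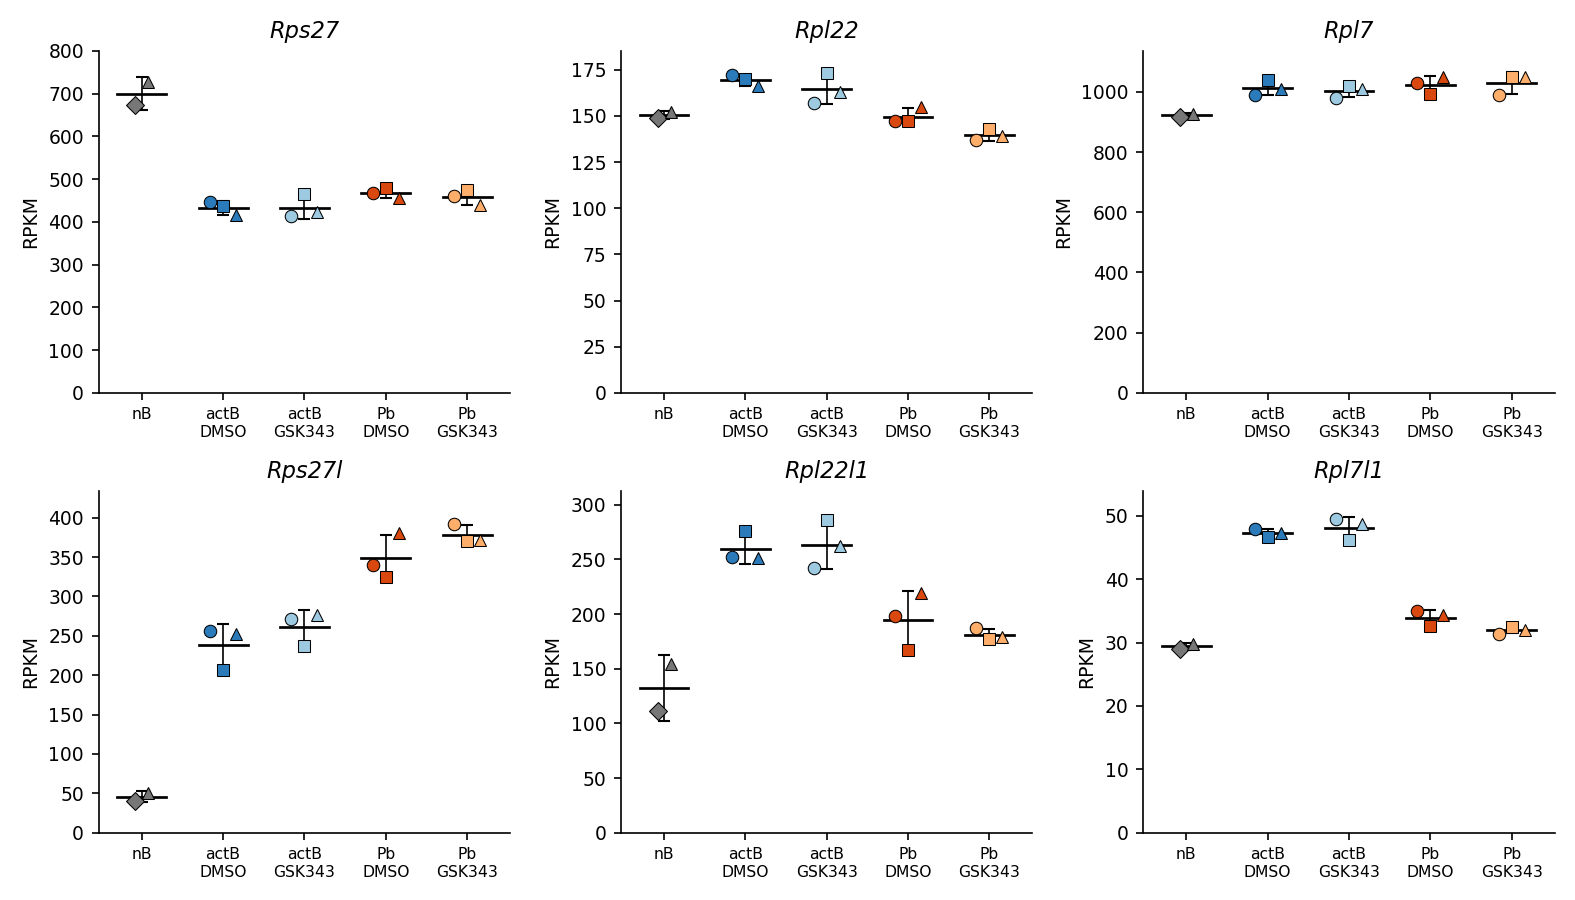
RPKM by library for 3 standard ribosomal proteins (top) and their paralogues (bottom), with the group mean as a line and SD as a bar (symbols mark replicate 1, 2 and 3, the diamond the merged nB library). Rps27l climbs from 45.8 in nB to 348.6 in Pb DMSO while Rps27 drops from 700.2 to 467.7, and Rpl22l1 and Rpl7l1 peak in actB.

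The step from actB to Pb split the mitochondrial set. With DMSO 10 of its 76 members were higher in Pb and 37 lower, where 27.3% of all genes rose and 42.4% fell. With GSK343 10 were higher and 32 lower, where 26.4% rose and 44.2% fell. The medians of -0.22 and -0.19 lay a little below those of all genes (-0.12 and -0.14), and median scaling, which brings the median of all genes to -0.0048 and -0.0027, gave -0.11 and -0.048 with splits of 15 to 28 and 18 to 23. Quantile normalization gave splits of 12 to 28 and 14 to 26, and edgeR 12 to 31 and 16 to 28, higher against lower. Without the libraries numbered 2 the splits were 11 to 46 and 13 to 42. Both cultures share no library, although libraries of the same number tended to deviate together, clearly so for those numbered 2. Of the 10 members higher with DMSO, 9 were among the 10 higher with GSK343 (90% of each list). In both cultures 31 members were lower (83.8% of the DMSO list and 96.9% of the GSK343 list). Over all genes tested the shared calls were 88.2% and 91.4% of both lists of rises and 93.0% and 89.3% of both lists of falls, so the overlap was not particular to the members.

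The members higher in Pb in both cultures were Mrpl13, Mrpl37, Mrpl51, Mrpl54, Mrpl55, Mrpl57, Mrps12, Mrps14 and Mrps24. With GSK343 the call of Mrps24 was lost without Pb GSK343 1 (adjusted p = 0.075), actB GSK343 2 (0.0559) or actB GSK343 3 (0.0581). Mrpl57, a large-subunit protein, measured 13.5, 10.2 and 11.8 RPKM in actB DMSO and 28, 29.4 and 28.8 in Pb DMSO. With GSK343 it measured 12.9, 11.5 and 12.4 in actB and 28.4, 27.8 and 27.1 in Pb. The cell states were far apart in both cultures, with changes of 1.27 ± 0.083 (adjusted p = 3.45e-08) and 1.16 ± 0.083 (adjusted p = 7.29e-08). Mrpl37, without a bacterial counterpart, went from 50.5, 44.6 and 50.6 RPKM in actB DMSO to 87.1, 85.4 and 96.1 in Pb DMSO (0.88 ± 0.081, adjusted p = 8.59e-07), and by 0.82 ± 0.081 with GSK343 (adjusted p = 1.66e-06). Mrps12, part of the decoding centre, went from 31.5, 25.3 and 28.7 to 44.9, 38.3 and 46.6 RPKM (0.60 ± 0.13, adjusted p = 0.00101, and 0.70 ± 0.13 with GSK343, adjusted p = 3.15e-04). Mrpl13 rose by 0.55 ± 0.075 and 0.58 ± 0.075 (adjusted p = 3.02e-05 and 1.71e-05).

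All 10 members higher in Pb with GSK343 had also risen on activation, as had 72 of the 76 mitochondrial members. Mrpl57 and Mrpl13 serve as examples of this ascending order of nB, actB and Pb. Mrpl57 averaged 6.997 RPKM in nB (SD 0.323, n = 2), 11.84 in actB DMSO (SD 1.66, n = 3) and 28.71 in Pb DMSO (SD 0.703, n = 3). Mrpl13 averaged 3.814 (SD 0.340), 8.402 (SD 0.680) and 12.38 RPKM (SD 0.902). In each of them no 2 of these states overlapped.

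Other members were highest in activated cells. Mrpl45 fell back to 22.1, 17.8 and 21.4 RPKM in Pb DMSO, less than any activated library and above nB (-1.18 ± 0.072, adjusted p = 1.84e-08). With GSK343 it went from 39.6, 41.5 and 39.0 in actB to 19.4, 20.4 and 21.3 RPKM in Pb (-0.97 ± 0.072, adjusted p = 1.12e-07). Mrps6 was at 16.1, 14 and 15.9 RPKM in actB DMSO and 7.77, 5.79 and 6.78 in Pb DMSO (-1.16 ± 0.10, adjusted p = 6.74e-07), where it overlapped nB at 5.63 and 6.49 RPKM. Mrps6 shares exon bases on its own strand with Slc5a3, a myo-inositol transporter gene, and reads of both cannot be told apart there. Mrps22 and Mrpl19 fell by 0.70 and 0.68 on the log2 scale with DMSO (adjusted p = 6.57e-04 and 3.50e-05) and by 0.68 and 0.75 with GSK343 (adjusted p = 7.78e-04 and 1.46e-05).

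Mrps7 fell back less, to 64.4, 59.4 and 73.5 RPKM in Pb DMSO, still above both nB libraries (-0.47 ± 0.081, adjusted p = 2.30e-04). Mrpl24, the member that fell on activation, fell again with DMSO (-0.23 ± 0.056, adjusted p = 0.00285) and with GSK343 (-0.25 ± 0.056, adjusted p = 0.00169), calls that median scaling did not keep (adjusted p = 0.0558 and 0.0786). Mrpl18 and Mrpl20, 2 of the 3 most abundant mitochondrial members, kept their gains: Mrpl18 measured 107, 94.6 and 112 RPKM in Pb DMSO, and neither gene passed the test in either culture. Setting the activation step beside the Pb step of the GSK343 libraries, which it shares no library with, 30 of the 72 raised members were then lower, 10 higher and 32 not called, so that the lower share was near the 44.2% of all genes.

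**Figure D4:**
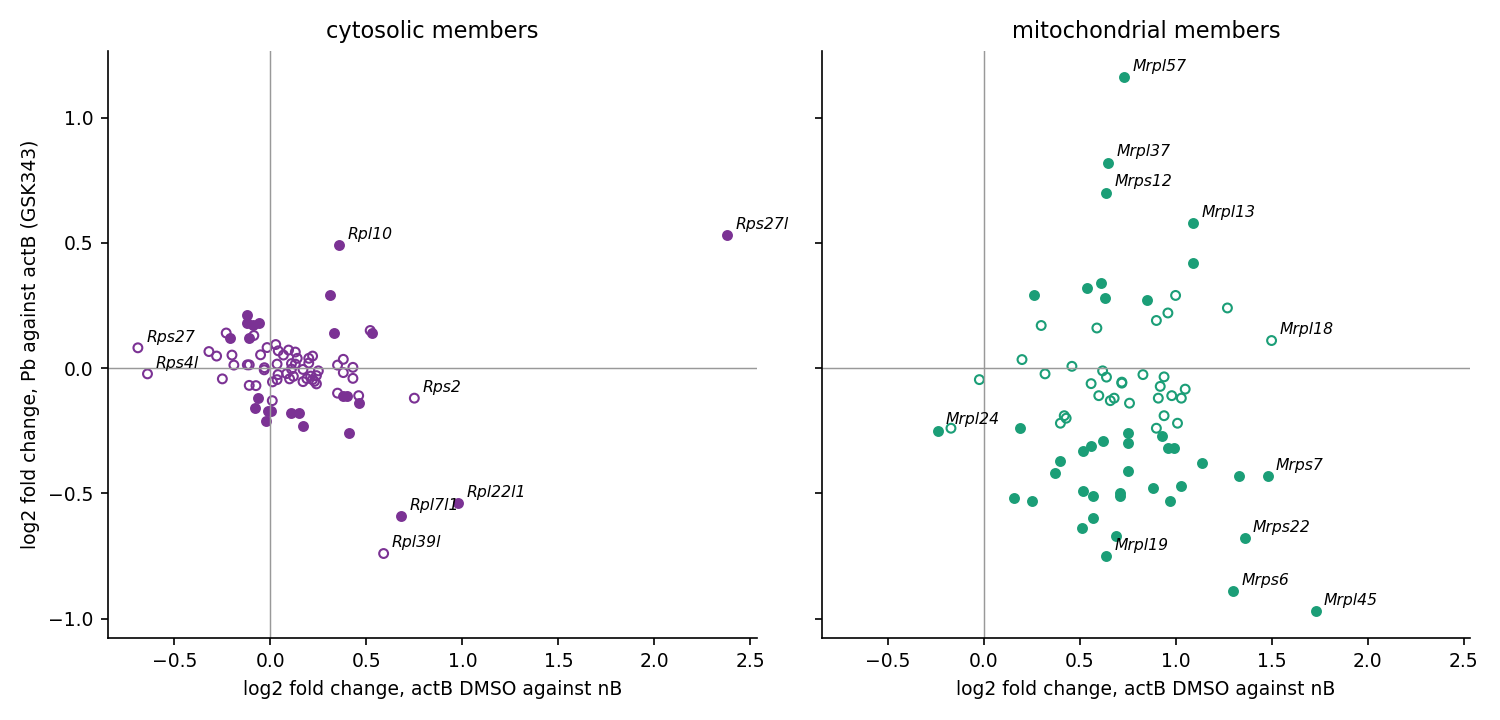
log2 fold change of each tested member from nB to actB DMSO (x axis) and from actB to Pb in the GSK343 libraries (y axis), cytosolic on the left and mitochondrial on the right, filled where the y value has an adjusted p under 0.05. Most mitochondrial members lie right of 0 and spread from -0.97 (Mrpl45) to 1.16 (Mrpl57) on the y axis, and cytosolic members cluster near 0 apart from variant proteins and Rpl10.

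**Figure D5:**
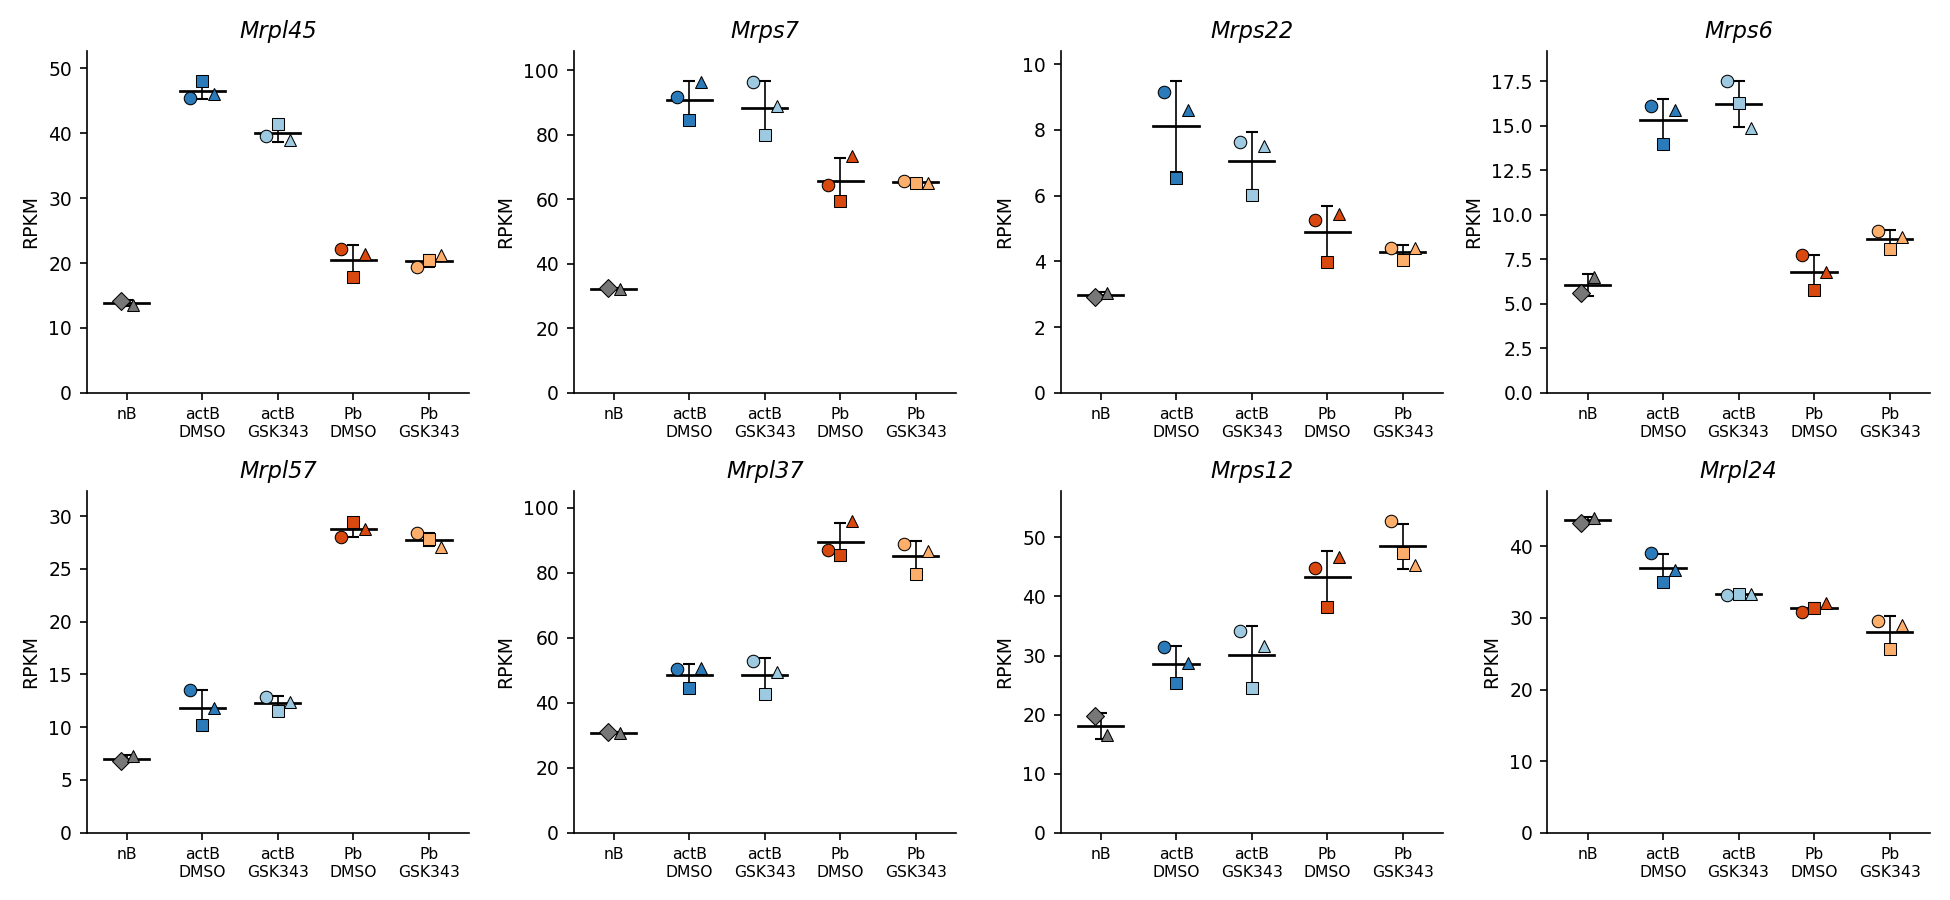
RPKM by library for 8 mitochondrial members, with the group mean as a line and SD as a bar (symbols as replicate 1, 2 and 3, the diamond the merged nB library). Mrpl45, Mrps7, Mrps22 and Mrps6 peak in actB, Mrpl57, Mrpl37 and Mrps12 are highest in Pb, and Mrpl24 declines from 43.61 in nB to 31.44 in Pb DMSO.

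The cytosolic set as a whole kept its level between actB and Pb on this scale. With DMSO 12 of 81 tested members were higher and 11 lower, and with GSK343 11 and 14, where all genes rose and fell in the shares given above. The medians were 0.019 and -0.0053, above the -0.12 and -0.14 of all genes. These splits depend on the scaling: median scaling gave 41 higher and 3 lower with DMSO and 44 and 2 with GSK343, edgeR 32 and 4, and 27 and 5, and quantile normalization 6 and 32, and 3 and 42. So no direction can be given for the set. Past 1.5-fold with DMSO were 1 of 81 cytosolic and 10 of 76 mitochondrial members, against 35.0% of all genes. Without the libraries numbered 2 the cytosolic splits were 15 to 5 with DMSO and 11 to 12 with GSK343.

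Rpl10, which is added late to the 60S subunit next to the peptidyl transferase centre, had the largest rise after Rps27l. It measured 859 and 863 RPKM in nB, 1080, 1130 and 1120 in actB DMSO and 1540, 1450 and 1600 in Pb DMSO, an ascending order without overlap. Its changes to Pb were 0.47 ± 0.048 with DMSO (adjusted p = 2.16e-06) and 0.49 ± 0.048 with GSK343 (adjusted p = 1.28e-06). Rpl41, the smallest protein of the 60S subunit, went from 1110, 969 and 1010 to 1300, 1290 and 1300 RPKM (0.33 ± 0.051, adjusted p = 8.17e-05, and 0.29 ± 0.051 with GSK343, adjusted p = 2.59e-04). Rps24, of the 40S subunit, was at 121, 119 and 117 RPKM in actB DMSO and 143, 151 and 147 in Pb DMSO (0.31 ± 0.052, adjusted p = 1.79e-04). With GSK343 the change of Rps24 was 0.21 ± 0.052 (adjusted p = 0.00255, and 0.0546 under quantile normalization). Besides Rpl22l1 and Rpl7l1, Rps12 of the 40S subunit fell, from 320, 308 and 313 to 264, 241 and 285 RPKM (-0.25 ± 0.059, adjusted p = 0.00203). With GSK343 its change was -0.26 ± 0.059 (adjusted p = 0.00179), a call that median scaling did not keep (adjusted p = 0.0682).

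The stalk moved unevenly again. Rplp2 rose in both cultures (0.19 ± 0.050 and 0.18 ± 0.050, adjusted p = 0.00529 and 0.0069), which quantile normalization did not keep (adjusted p = 0.0981 and 0.105). Rplp1 did not pass the test in either (adjusted p = 0.316 and 0.382), but was lower in both under quantile normalization (adjusted p = 0.0192 and 0.00314). Rplp0 changed by 0.10 ± 0.057 with DMSO (adjusted p = 0.124) and 0.14 ± 0.057 with GSK343 (adjusted p = 0.0411). With DMSO it passed under median scaling, with edgeR and without the libraries numbered 2 (adjusted p = 0.00736, 0.0169 and 0.0208). With GSK343 the call was lost in 9 of 18 settings, among them quantile normalization (adjusted p = 0.344), leaving out the libraries numbered 2 (0.104), and leaving out Pb GSK343 replicate 2 (adjusted p = 0.174), Pb GSK343 replicate 3 (0.0986) or any single actB GSK343 library (0.057 to 0.0955). Rpl3, at the peptidyl transferase centre, was called lower in both (-0.16 ± 0.052 and -0.14 ± 0.052, adjusted p = 0.0144 and 0.0252). With DMSO that call was lost without Pb DMSO 2 (adjusted p = 0.0654) or actB DMSO 2 (0.053), with GSK343 without Pb GSK343 1 (0.0998) or actB GSK343 2 (0.0774), and in both under median scaling and edgeR.

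The wider machinery was read from fixed lists. Beside them, 40.9% of all genes were higher and 36.3% lower in actB against nB. In Pb against actB 27.3% were higher and 42.4% lower with DMSO, and 26.4% and 44.2% with GSK343. Ribosome biogenesis genes, which make and fold rRNA into subunits, had 41 of 44 members higher and 1 lower in actB against nB (median 0.80), and then 40 lower and 1 higher in Pb with DMSO (median -0.62) and 39 lower and 1 higher with GSK343 (median -0.55). Npm1, the nucleolar chaperone, averaged 349 RPKM in nB, 940 in actB DMSO and 483 in Pb DMSO, and the exception was Gnl3, a nucleolar GTPase, at 37.6, 89.7 and 151 RPKM (0.76 ± 0.14 in Pb against actB with DMSO, adjusted p = 4.01e-04). The share of reads in this list was 0.472 to 0.479% in nB, 0.764 to 0.953% in actB DMSO and 0.527 to 0.606% in Pb DMSO. The fall in Pb thus covered nearly the whole list, in contrast to the divided mitochondrial members.

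Cytosolic initiation factors, which load the ribosome on the mRNA, had 32 of 39 higher and 4 lower in actB (median 0.69), then 7 higher and 16 lower in Pb with DMSO, where the lower share was close to the 42.4% of all genes. Eif4ebp1, the translation repressor controlled by mTORC1, went from 15 to 43.6 RPKM on activation (1.51 ± 0.12, adjusted p = 1.87e-07), and Eif5 was the largest riser in Pb, from 115 to 185 RPKM (0.69 ± 0.071, adjusted p = 2.34e-06). Of 8 genes listed as elongation factors 6 rose in actB and 4 fell in Pb with DMSO, against 40.9% and 42.4% of all genes. Eef1e1, counted by its listing alone, was among both the rises and the falls. Eif5a, the hypusinated factor, rose from 171 to 327 RPKM in actB (0.93 ± 0.14, adjusted p = 4.40e-05).

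Mitochondrial translation factors had 10 of 11 higher and 1 lower in actB, where 40.9% of all genes rose and 36.3% fell. In Pb 9 were lower in either culture, where 42.4% of all genes fell with DMSO and 44.2% with GSK343. Tufm, the mitochondrial elongation factor Tu, averaged 26.6 RPKM in nB, 60.4 in actB DMSO and 37.4 in Pb DMSO (1.17 ± 0.076 and -0.69 ± 0.068, adjusted p = 2.12e-08 and 1.65e-06). Assembly factors of the mitochondrial ribosome had 12 of 21 higher (57.1%, against 40.9% of all genes) and 4 lower in actB. In Pb with DMSO 1 was higher and 15 were lower (71.4%, against 42.4% of all genes). C1qbp, a matrix protein, went from 56.4 to 177 to 109 RPKM. Further proteins of the mitochondrial ribosome or bound to it, with names outside the rule, had 6 of 7 higher and 1 lower in actB and 3 lower in Pb with DMSO, the last at the 42.4% of all genes. The one lower in actB was Oxa1l, the inner membrane insertase that receives new proteins from the ribosome, at 25.6 RPKM in nB, 23.0 in actB DMSO and 13.6 in Pb DMSO. Its first fall (-0.15 ± 0.063, adjusted p = 0.0392) was lost without nB 1-2 (adjusted p = 0.198), without actB DMSO 2 (0.125) and with the replicate block (0.134).

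Of 5 cytosolic ribosomal proteins whose symbols fall outside the rule, Rpl36al had the pattern of Rpl10, at 77.9 RPKM in nB, 110 in actB DMSO and 172 in Pb DMSO (0.50 ± 0.057 and 0.64 ± 0.051, adjusted p = 4.14e-06 and 2.00e-07). Fau, which encodes eS30, fell on activation from 581 to 415 RPKM (-0.49 ± 0.080, adjusted p = 1.19e-04). With these genes added the cytosolic counts were 38 higher and 11 lower of 86 in actB, close to the shares of the rule's own members.

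In the main fit, which does not match libraries by number, the inhibitor left both sets nearly where they were. With the replicate block more mitochondrial members were called, 7 in actB and 11 in Pb, as given below. In actB, 0 of 81 cytosolic members passed the test and 0 mitochondrial members rose while 2 of 76 fell, where 8.20% of all genes rose and 2.16% fell. Without adjustment 3 cytosolic and 8 mitochondrial members had p under 0.05, and edgeR called 0 and 5. In Pb 1 cytosolic member fell and 1 mitochondrial member rose, where 7.90% of all genes rose and 5.0% fell, with 6 and 7 at an unadjusted p under 0.05 and edgeR calls of 1 and 0. Median log2 changes were -0.013 (cytosolic) and -0.014 (mitochondrial) in actB against 0.028 over all genes, and -0.036 and 0.0073 in Pb against 0.0031. Single tested members lay between -0.11 and 0.32 (cytosolic) and between -0.22 and 0.30 (mitochondrial) in actB, and between -0.17 and 0.13, and -0.17 and 0.35 in Pb.

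The 2 members called in actB were Mrpl30 and Mrps35. Mrpl30, of the large subunit, measured 80.3, 75.6 and 78.4 RPKM with DMSO and 70.7, 69.9 and 68.7 with GSK343, without overlap (-0.16 ± 0.042, adjusted p = 0.0313). Mrps35, of the small subunit, measured 30.8, 27.5 and 28.4 and then 25.6, 24.9 and 23.9 RPKM (-0.22 ± 0.063, adjusted p = 0.0477), also without overlap. Both calls were lost without actB DMSO 1, without actB DMSO 3 and without any single actB GSK343 library, with adjusted p up to 0.115 and 0.174. With the replicate block, which treats libraries of the same number as matched, 7 mitochondrial members were called. Mrpl52 was higher (0.30, adjusted p = 0.0125). Mrpl30, Mrpl44, Mrps27, Mrps30, Mrps31 and Mrps35 were lower by 0.15 to 0.22 on the log2 scale. The share of all genes called with the block was not taken.

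In Pb, Rpl24 of the 60S subunit measured 703, 733 and 733 RPKM with DMSO and 620, 667 and 636 with GSK343 (-0.17 ± 0.049, adjusted p = 0.0359), without overlap. Its call was lost on leaving out any 1 of the 6 libraries other than Pb GSK343 2, with adjusted p of 0.062 to 0.13. Mrps6 measured 7.77, 5.79 and 6.78 RPKM with DMSO and 9.10, 8.06 and 8.75 with GSK343 (0.35 ± 0.10, adjusted p = 0.0474), an order in which every treated library was higher. That call was lost without any 1 of the libraries other than Pb DMSO 1 (adjusted p = 0.0517 to 0.159), and edgeR gave 0.0855. With the replicate block 2 cytosolic members were lower (Rpl24 and Rps24), and of 11 mitochondrial members 7 were higher (Mrpl17, Mrpl27, Mrpl36, Mrpl42, Mrpl52, Mrps6 and Mrps23) and 4 lower (Mrpl3, Mrpl24, Mrpl30 and Mrps30). The share of all genes called with the block was not taken, so these counts cannot be set beside it. The labels of Pb GSK343 name Il6, as said above, against IL5 in the methods.

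Whether the inhibitor acted differently in actB and Pb was tested as an interaction, and 0 members of either set passed, where 0.0974% of all genes were called in the positive and 0.150% in the negative direction. At an unadjusted p under 0.05 limma had 0 in both sets, and edgeR called 0, with 0 cytosolic and 1 mitochondrial member at an unadjusted p under 0.05. Among related genes Polr1a, the largest subunit of RNA polymerase I, was lower with GSK343 in actB (-0.29 ± 0.048, adjusted p = 0.00347) and in Pb (-0.22 ± 0.048, adjusted p = 0.0133), and Eif2a was lower in both (-0.18 ± 0.046 and -0.19 ± 0.046, adjusted p = 0.0296 and 0.0199). In actB the means with DMSO and GSK343 were 21.7 and 17.7 RPKM for Polr1a and 29.6 and 26.1 RPKM for Eif2a. The call of Polr1a in actB was lost with both groups fitted alone (adjusted p = 0.0524). In Pb it was lost without Pb DMSO 1 (adjusted p = 0.0526) or Pb GSK343 3 (0.056). That of Eif2a was lost in actB with both groups fitted alone (adjusted p = 0.144) and without any 1 library other than actB DMSO 2 (0.0611 to 0.116). In Pb the call of Eif2a was lost without any 1 library other than Pb DMSO 2 (0.0504 to 0.0806).

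Levels of cytosolic members carry an uncertainty of their own. Ribosomal protein genes have many near-identical processed pseudogenes, and how reads that map to several places were treated is not given in the sources used here. Rpl34 is a case in point: it measured 14.4 to 29.6 RPKM over all libraries, far below most other 60S proteins. The pseudogene Rpl34-ps1 averaged 83.7 RPKM in nB and 90.8 to 98.8 RPKM in the cultured groups. Levels between members should be read with this in mind, and changes of 1 member between groups rest on the same counting in every library.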

How the data were processed

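Poly(A) RNA of sorted mouse B cells was sequenced by the authors from 500 ng total RNA (stranded kit, 50 bp paired-end), mapped to mm9 with TopHat2 (per the submitters' processing notes), and counted over exons of each Entrez gene of the UCSC Known Gene set with GenomicRanges 1.22.4. The deposited table, although named RPKM, holds RPM: each column sums to 1000000. All values (100%, within 0.1 read) were whole multiples of 1 read, so reads could be recovered. Strand use and the treatment of multiply mapped reads are not given in the sources used here.

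To set genes of unequal length side by side, RPM was divided by the length column (in kilobases), which gave RPKM. Genes with at least 1 RPKM in at least 3 columns (11299) were fitted with limma 3.58.1 (trend) in R 4.3.3 on log2(RPKM + 0.25). Fold changes are on that scale, which understates changes of low genes. All p-values are two-sided and Benjamini-Hochberg adjusted over all genes tested, with calls at 0.05, and measure the spread between these libraries, since the labels do not state that replicates are separate animals. 92 genes without a symbol (at most 0.09% of reads) were left out. A count of 0 allows 3 reads, or 0.114 to 0.154 RPM, for counting error only. Alternatives were edgeR 4.0.16 on recovered reads, other scalings, filters and pseudocounts, a replicate block, and leaving out libraries. The fit was tested on simulated data. edgeR, the 15 columns as deposited and leaving out the libraries numbered 2 were added after seeing the data.

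Members and lists were chosen with earlier results of these data known. Genes named were the 3 highest of each set and the lowest, the 4 largest called rises and falls per comparison (at least 2 RPKM in a group and no overlap of libraries), the stalk, variant and partner proteins and Rps6. From other lists at most 3 genes were named per comparison. Further lost calls and members called only with the block were named after their values were seen. The sample titles give each library a number (m1, m2 or m3) that recurs in every group. Libraries of the same number were treated as matched in the replicate block. Among cultured libraries their deviations from group means correlated by 0.158 to 0.502 (number 1), 0.435 to 0.713 (number 2) and 0.219 to 0.356 (number 3) over 6 pairs each. Between different numbers the range was -0.603 to 0.37, so only number 2 lay wholly above it. Gene positions are from GENCODE vM1 (mm9), promoters from RefSeq (GRCm38.p6).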

Additional observations from a re-analysis of the deposited data

How the results depend on the processing

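Of 458 values recomputed for both sets under the alternatives, 401 stayed within the spread between replicates or 1.5 times the count. In actB against nB the cytosolic median log2 fold change was 0.063 with edgeR, 0.041 under median scaling, 0.055 under quantile normalization and 0.08 with the replicate block. In Pb against actB with DMSO, cytosolic calls were 14 (both groups fitted alone), 36 (edgeR), 44 (median scaling) and 38 (quantile), with medians of 0.083, 0.13 and -0.093 for the last 3, and the mitochondrial median was -0.11 under median scaling. With GSK343 the cytosolic medians were 0.081, 0.13 and -0.11, the calls 46 (median scaling) and 45 (quantile), and the mitochondrial medians -0.048 and -0.068. For GSK343 in actB the cytosolic median was -0.046 (edgeR) and -0.047 (median scaling), 1 cytosolic member was called under quantile normalization, and mitochondrial calls were 0 (alone), 1 (no filter), 5 (edgeR, or without libraries numbered 2), 6 (median scaling) and 7 (replicate block), with 0 to 5 on leaving out 1 library. For GSK343 in Pb cytosolic calls were 0 (alone), 2 (15 columns as deposited, or replicate block) and 3 (without libraries numbered 2, median -0.074), with 0 to 2 on leaving out 1 library, and mitochondrial calls 0 (alone, edgeR, no filter, quantile), 2 (median scaling), 4 (without libraries numbered 2) and 11 (replicate block), with 0 to 1 on leaving out 1 library. Rpl39l reversed to -0.85 in actB against nB with the replicate block. The share of all genes called was taken in the main fit only. With the block the rise of Mrps24 in actB against nB was no longer called (0.24, adjusted p = 0.11). Its call was also lost with edgeR (adjusted p = 0.0756), median scaling (0.104) and quantile normalization (0.0984). Further calls that the block changed are given with the results. The cause of these shifts was not tested.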
